A study of Mus musculus with 4 samples.

Results

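Xdh and 9 further genes of purine breakdown and salvage were followed in mouse oocytes after knockdown of Ell3, which encodes an elongation factor of RNA polymerase II. The members were taken by symbol (Xdh, Pnp, Pnp2, Gda, Ada, Ampd2, Ampd3, Hprt, Aprt and Uox) and made up 10 of the 53677 genes in the count tables. Xdh was chosen by its change in CPM, the largest fall among well-expressed genes in the comparison of Ell3 knockdown with control, and that change is therefore given as a description and without a test. The other 9 were chosen for their place in the pathway. All oocytes were at the germinal vesicle (GV) stage, in meiotic prophase arrest, and came from females injected with 7.5 IU of PMSG, a gonadotropin that stimulates follicle growth, 48 h before collection. Control oocytes (Ctrl) and oocytes with the knockdown (Ell3 KD) were each measured in 2 Smart-seq2 libraries of 5 oocytes. The agent used for the knockdown, the treatment of the controls, the strain and the age of the females are not given in the sources used here.

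Purine nucleotides are broken down stepwise. AMP deaminases (AMPD) turn AMP into IMP, adenosine deaminase (ADA) turns adenosine into inosine, and purine nucleoside phosphorylase (PNP) splits inosine and guanosine into ribose phosphate and the bases hypoxanthine and guanine. Guanine deaminase (GDA) makes xanthine from guanine, and xanthine dehydrogenase (XDH), a molybdenum enzyme that can also act as an oxidase releasing reactive oxygen, oxidises hypoxanthine to xanthine and xanthine to urate, which urate oxidase (UOX) degrades further in the mouse. The phosphoribosyltransferases HPRT and APRT run the other way and rebuild nucleotides from free bases. Hypoxanthine is a known constituent of follicular fluid and holds isolated mouse oocytes in meiotic arrest in culture.

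Library totals lay between 45131278 and 89632815 counts, and both Ell3 KD libraries were deeper than both Ctrl libraries. Values are CPM, counts scaled to the same total in each library and adjusted with TMM factors between 0.984 and 1.015. They are relative to all other transcripts of a library, so a change of total RNA per oocyte is not seen. Ell3 itself was at 8.12 and 9.78 CPM in Ctrl and at 2.88 and 2.80 CPM in Ell3 KD, in the direction of the labels. Serinc4, read in the same direction, overlaps 65.6% of the Ell3 exon bases, so the Ell3 counts are uncertain. Of 10 oocyte markers, all had counts in every library, with sums between 20218 and 20885 CPM. Of these markers, 2 were called higher (Dppa3 and Oosp1) and 4 lower (Gdf9, Zp1, Nlrp5 and Ddx4) at an edgeR adjusted p under 0.05. The 13 cumulus and granulosa markers summed to between 51.3 and 58.1 CPM, the 10 theca and stroma markers to between 4.48 and 4.84 CPM, and the 10 blood and immune markers to between 1.21 and 2.98 CPM. The 6 endothelial markers summed to between 55.4 and 70.7 CPM, most of it Pecam1, while Emcn was at 0 in every library and Cdh5 had a single count in 1 library. The oviduct and epithelial markers, 7 in number, summed to 7.79 and 8.14 CPM in Ctrl and to 5.38 and 5.18 CPM in Ell3 KD. The oocyte, cumulus and granulosa, endothelial, epithelial and blood sums were each lower in both Ell3 KD libraries than in both Ctrl libraries, in the direction of Xdh. Single somatic markers were called higher, namely Inha (0.941 and 1.13 CPM to 2.18 and 2.47 CPM, edgeR adjusted p = 0.000363), Dcn (0.766 and 0.952 CPM to 1.77 and 1.99 CPM, edgeR adjusted p = 0.00122) and Kdr (0.897 and 1.11 CPM to 1.73 and 1.73 CPM, edgeR adjusted p = 0.0179). Other somatic markers were called lower, namely Nr5a2, Pecam1, Vwf, Cd68, Krt8 and Ovgp1 (edgeR adjusted p under 0.05). Of all genes tested, 21.1% were called higher and 21.8% lower. The part of these markers in the results was not tested. The labels do not say that replicates came from separate animals, so the p-values and intervals reflect how far these libraries scatter, which can be technical scatter alone.

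Xdh was abundant in control oocytes and nearly lost after the knockdown. Its level was 49.5 and 50.1 CPM in the Ctrl libraries, from 2261 and 2474 counts. In the Ell3 KD libraries it was 2.19 and 2.38 CPM, from 194 and 154 counts. The libraries of a group lay close together and the groups far apart. The means were 49.8 ± 0.456 CPM in Ctrl and 2.29 ± 0.136 CPM in Ell3 KD (SD, n = 2 per group), so 4.59% of the Ctrl level remained, and the log2 fold change was -4.45 ± 0.08 (SE). Leaving out any 1 library gave values between -4.50 and -4.38. By mean level, Xdh stood at rank 3900 of the 17879 genes tested in Ctrl and at rank 11402 in Ell3 KD. Among genes with a mean of at least 5 CPM, the class from which Xdh was picked, the next largest named falls were those of Ell3 (-1.66), the olfactory receptor gene Olfr1257 (-1.58) and the desaturase gene Scd3 (-1.52), on the log2 scale. Predicted genes are left out of this order, and among them falls of -2.21 and -1.73 were larger than that of Ell3. The gene at -2.21 had uneven Ctrl libraries (12.6 and 4.70 CPM).

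The Xdh counts can be placed with more certainty than those of several other members. It occupies chromosome 17 from 73883895 to 73950196, minus strand, on GRCm38 (mm10). None of its exons overlap another gene in GENCODE M21, and none of the 4551 windows of 50 bases in its longest coding transcript occurs in a transcript of another gene. The longest run of bases that this transcript shares with that of Ell3 is 12, on the same strand as well as in reverse complement. Runs of that length or longer with Ell3 were found in 50.8% and 47.1% of 17335 tested genes, respectively, so runs of this length with Ell3 are common, and no part of them in the fall was tested.

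The tested genes beside Xdh on chromosome 17 had smaller changes. Xdh was picked as the largest fall among well-expressed genes, so nothing is read from a smaller change in neighbours at that level. The nearest tested genes are Ehd3, an endocytic recycling gene, with a gap of 51.8 kb, and Srd5a2, the gene of a steroid 5-alpha-reductase, with a gap of 66.8 kb on the other side. Ehd3 went from 14.4 and 13.8 CPM to 10.9 and 10.02 CPM and fell by 0.43 ± 0.09 in log2 units (edgeR quasi-likelihood test with Benjamini-Hochberg adjustment over all genes, adjusted p = 0.000351). Srd5a2, at 0.591 and 0.992 CPM in Ctrl and 1.11 and 0.665 CPM in Ell3 KD, was not called (0.17 ± 0.36, edgeR adjusted p = 0.738). Memo1, at 81.4 and 77.6 CPM against 83.8 and 84.8 CPM, and Lclat1, at 96.0 and 99.0 CPM against 96.2 and 100.9 CPM, were not called either (edgeR adjusted p = 0.117 and adjusted p = 0.809). The histone methyltransferase subunit gene Dpy30 rose by 0.23 ± 0.03 (edgeR adjusted p = 6.74e-06). Galnt14, a gene of protein O-glycosylation, fell by 1.45 ± 0.55 (edgeR adjusted p = 0.0356) at a level of 0.644 CPM in Ctrl and 0.230 CPM in Ell3 KD. That call rests on Ctrl replicate 1, without which the log2 fold change was -0.39 (edgeR adjusted p = 0.744), and it was not made without either Ell3 KD library (edgeR adjusted p = 0.0771 and adjusted p = 0.155 without replicate 1 and replicate 2), with DESeq2 (adjusted p = 0.127) or with limma-voom (adjusted p = 0.0764). Within 1000 kb on either side, 12 genes were tested, of which 3 rose and 4 fell, beside 21.1% and 21.8% of all genes. The log2 fold changes of the 12 lay between -1.45 and 0.25, with a median of 0.05.

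**Figure D1:**
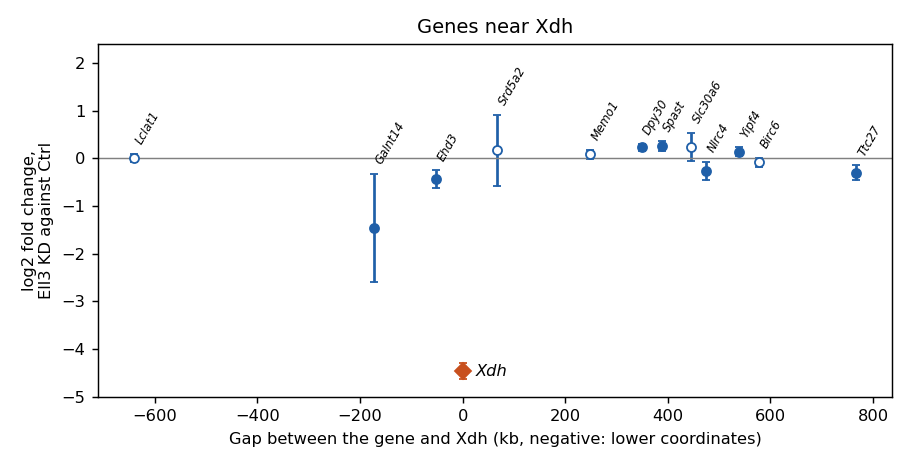
Log2 fold change in Ell3 KD against Ctrl (vertical axis) of Xdh (diamond) and of the 12 tested genes within 1000 kb, by the gap to Xdh in kb (horizontal axis). Bars are 95% intervals, and filled circles passed the test at an adjusted p under 0.05. Xdh lies at -4.45, and the neighbours between -1.45 and 0.25.

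The 5 named genes with profiles most like that of Xdh, among those with a mean of at least 1 CPM, fell less steeply. Among genes of at least 5 CPM, the lead of Xdh was fixed by the way it was picked. Likeness was measured as the Euclidean distance between log2 CPM profiles, each centred on the gene's own mean, over 13279 genes. The nearest were the actin-associated gene Synpo at a distance of 2.10, the intramembrane protease gene Sppl2b at 2.18, the mitochondrial alanyl-tRNA synthetase gene Aars2 at 2.21, the tRNA methylation gene Wdr4 at 2.34 and the potassium channel gene Kcnk2 at 2.36. Aars2, at 3.85 and 5.18 CPM in Ctrl and 0.869 and 0.974 CPM in Ell3 KD, had the highest level of these. Their log2 fold changes lay between -2.48 and -2.16, against -4.45 for Xdh. Sppl2b depended on the Ell3 KD libraries, at -3.89 without replicate 1 and -1.87 without replicate 2. These genes were found by their change in the same libraries, and no test applies to them.

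Of the other 9 members, 8 had enough counts to be tested, and Uox had no count in any library. A count of 0 allows up to 0.0656 and 0.0608 CPM in the Ctrl libraries and 0.0339 and 0.0464 CPM in the Ell3 KD libraries, taking 3 counts as the limit and covering counting error only. PCR copies were not collapsed by molecular identifiers, so reads are not counts of molecules. Of the 8 tested, 5 were called higher (Pnp, Pnp2, Ada, Ampd3 and Hprt) and 1 lower (Ampd2) in Ell3 KD at an edgeR adjusted p under 0.05. Calls were common in this comparison: 42.9% of all genes tested passed, with 21.1% higher and 21.8% lower, and among genes of at least 5 CPM the share was 52.5%, with 27.2% higher and 25.3% lower. The groups did not overlap in any of the 8, against 70.7% of all genes tested and 76.4% of those at 5 CPM or more. The median log2 fold change of the 8 was 0.20 and that of all genes tested -0.0024. None of the 8 changed 2-fold or more, a size that 12.0% of all genes tested and 0.515% of those at 5 CPM or more reached. Regardless of sign, the median log2 fold change of the 8 was 0.236, against 0.248 for all genes tested and 0.157 for those at 5 CPM or more. Of the 6 calls, 5 were upward. Nothing is read from changes smaller than that of Xdh, which was picked for its fall.

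**Figure D2:**
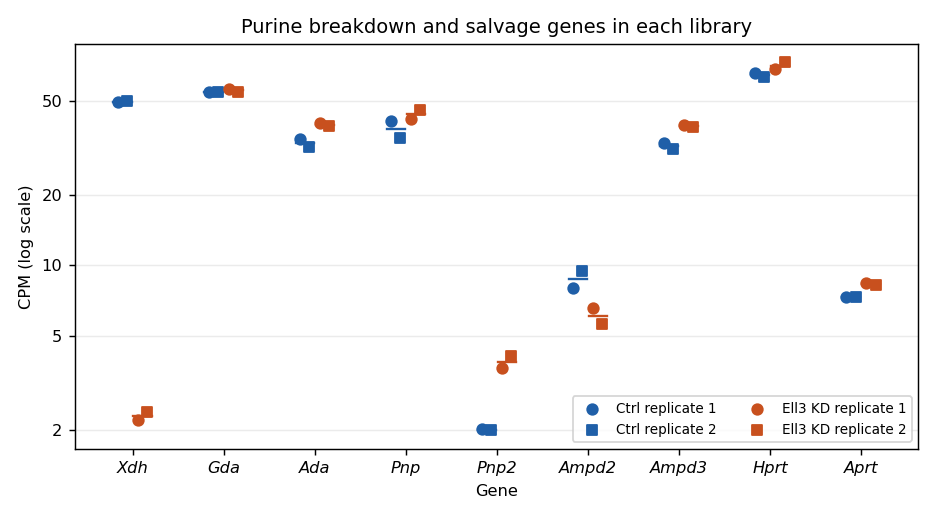
Level of the 9 detected members in CPM (vertical axis, log scale) in each library. Circles are replicate 1 and squares replicate 2, blue for Ctrl and orange for Ell3 KD, with short lines at the group means. Xdh drops from about 50 CPM to between 2.19 and 2.38 CPM, while the group means of the 8 other genes differ by less than 2-fold.

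Upstream of hypoxanthine, the AMP deaminase genes moved in opposite directions. Ampd3 was at 33.0 and 31.4 CPM in Ctrl and at 39.5 and 38.6 CPM in Ell3 KD, and it rose by 0.28 ± 0.06 in log2 units (edgeR adjusted p = 0.000265). Ampd2, the rarer of the pair here, was at 8.03 and 9.48 CPM in Ctrl and at 6.59 and 5.63 CPM in Ell3 KD. It fell by 0.51 ± 0.12 (edgeR adjusted p = 0.00137). Within a library, and so free of scaling between libraries, Ampd2 made up 19.6% and 23.2% of the counts of the pair in Ctrl and 14.3% and 12.7% in Ell3 KD. The 95% Wilson intervals, which cover counting error only, reached down to 17.8% in Ctrl and up to 15.4% in Ell3 KD. Of the exon length of Ampd2, 8.31% overlaps Gm12500 on the opposite strand. Of that of Ampd3, 3.48% overlaps B430319F04Rik and 3.47% Rnf141, both on the opposite strand, and 1.48% overlaps Gm47282 on the same strand. How strand was treated in counting is not given in the sources used here.

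Ada, which acts on adenosine, was at 34.4 and 32.0 CPM in Ctrl and at 40.5 and 39.1 CPM in Ell3 KD, with both Ell3 KD libraries above both Ctrl libraries. It rose by 0.26 ± 0.06 (edgeR adjusted p = 0.000591). Its exons overlap no other gene.

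On chromosome 14 of GRCm38, the annotated span of Pnp (50931082 to 50965237) contains the whole of Pnp2 (50955992 to 50964749), and both are on the plus strand. Their coding sequences match at 852 of 870 aligned bases (97.9%), with an identical run of 292 bases, longer than a read of 150 bases. The copies differ most near the end of the coding sequence. The stretches below, from chr14:50951528-50951617 for Pnp and chr14:50964380-50964469 for Pnp2, are the 90 bases with the most differences (7, in capitals). They are shown because, within the aligned coding bases, only reads that cover such differences tell the genes apart.
Pnp: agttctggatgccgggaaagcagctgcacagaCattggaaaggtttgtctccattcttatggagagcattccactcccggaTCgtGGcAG
Pnp2: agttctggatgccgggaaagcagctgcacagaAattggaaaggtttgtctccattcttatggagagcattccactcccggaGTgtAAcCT
Of the 50-base windows of the longest coding transcript, 28.7% for Pnp and 33.1% for Pnp2 also occur in transcripts of other genes. Besides the other copy, these genes are Gm49342 and Gm38316. Gm49342 overlaps 18% of the Pnp exon length and 2.02% of that of Pnp2, on the same strand. Gm38316 overlaps 8.95% of the Pnp exon length on the opposite strand. The counts of Pnp and Pnp2, and their split between the copies, are uncertain for these reasons. What was done with reads matching both copies or other genes is not given in the sources used here.

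Pnp2 had the largest change among the members other than Xdh. It was at 2.01 and 1.98 CPM in Ctrl and at 3.66 and 4.11 CPM in Ell3 KD, a rise of 0.95 ± 0.18 on the log2 scale or 1.94-fold (edgeR adjusted p = 0.000116). Pnp was at 41.0 and 34.9 CPM in Ctrl and at 42.2 and 45.7 CPM in Ell3 KD. Its groups were separated only narrowly, and its rise of 0.21 ± 0.06 (edgeR adjusted p = 0.00912) was not called without Ctrl replicate 2 (0.09, edgeR adjusted p = 0.273) or without Ell3 KD replicate 2 (0.16, edgeR adjusted p = 0.0933). Pnp2 took 4.67% and 5.38% of the counts of the pair in Ctrl and 7.98% and 8.26% in Ell3 KD. The highest Wilson bound in Ctrl was 6.51% and the lowest in Ell3 KD 7.18%, so the shares did not overlap. With the counts of both copies summed, a setting added once the data had been seen, the pair rose by 0.26 (edgeR adjusted p = 0.00142).

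Gda, whose product supplies XDH with xanthine, did not pass the test. It was at 54.7 and 54.8 CPM in Ctrl and at 56.4 and 54.9 CPM in Ell3 KD. The log2 fold change was 0.02 ± 0.05, with a 95% interval from -0.07 to 0.12 (edgeR adjusted p = 0.718).

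Of the salvage genes, Hprt was the most abundant member in every library. It was at 65.9 and 63.6 CPM in Ctrl and at 68.5 and 73.1 CPM in Ell3 KD, a rise of 0.13 ± 0.05 (edgeR adjusted p = 0.0280). The call was lost with DESeq2 (adjusted p = 0.0866), without Ctrl replicate 2 (0.10, edgeR adjusted p = 0.149) and without Ell3 KD replicate 2 (0.09, edgeR adjusted p = 0.309). Aprt was at 7.35 and 7.31 CPM in Ctrl and at 8.43 and 8.29 CPM in Ell3 KD. Its log2 fold change of 0.19 ± 0.11 was not called (edgeR adjusted p = 0.173), and its 95% interval ran from -0.04 to 0.42.

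**Figure D3:**
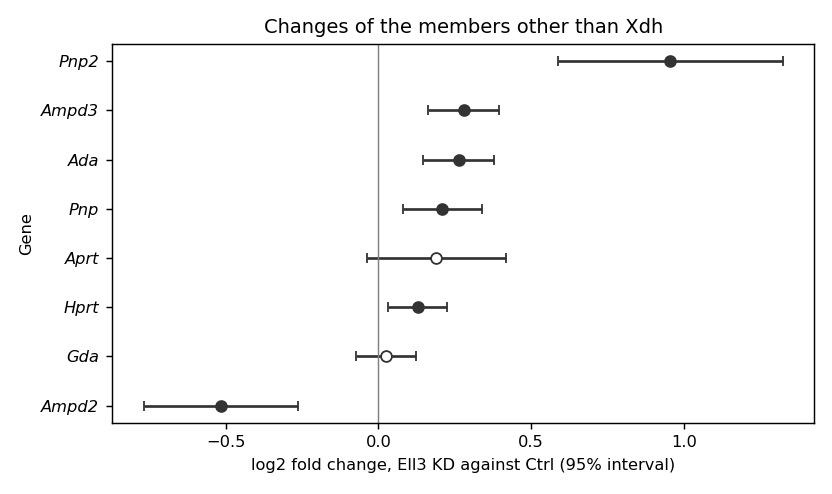
Log2 fold change in Ell3 KD against Ctrl (horizontal axis) of the 8 tested members other than Xdh, with 95% intervals from the edgeR fit. Filled circles passed the test at an adjusted p under 0.05. Ampd2 lies below 0, and Aprt and Gda have intervals that include 0.

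Divided by the exon length of each gene, levels can be compared between genes. In Ctrl the order was Hprt (50.2 ± 1.27 CPM per kb), Ada (16.6 ± 0.859), Pnp (9.55 ± 1.08), Gda (8.78 ± 0.0178), Ampd3 (5.73 ± 0.204), Xdh (5.43 ± 0.0497), Aprt (4.54 ± 0.017), Ampd2 (1.68 ± 0.196) and Pnp2 (1.26 ± 0.0124), each as SD of 2 libraries. Pnp and Gda did not differ beyond the spread of Pnp. In Ell3 KD, Xdh was the lowest of the 9 detected members at 0.249 ± 0.0148 CPM per kb, under Ampd2 at 1.17 ± 0.130 and Pnp2 at 2.45 ± 0.204. The place of Xdh in Ctrl depends on the length used, since its annotated exons together (9175 bases) are longer than its longest protein-coding transcript. Per kb of its longest protein-coding transcript (4600 bases) it was at 10.8 ± 0.0991 CPM per kb, between Pnp at 12.9 ± 1.47 and Gda at 10.1 ± 0.0205. In Ell3 KD it was the lowest by that length too, at 0.497 ± 0.0295 CPM per kb.

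The wider pathway was described with 7 lists of 80 symbols. Of these genes 59 were tested, 9 rose and 17 fell (44.1% called, near the 42.9% of all genes), and the median log2 fold change was -0.08. Of the 28 tested at 5 CPM or more, 4 rose and 10 fell, beside 27.2% and 25.3% of all genes at that level. None of the 28 changed 2-fold, a size that 0.515% of all genes at that level reached. Since Xdh was picked as the largest fall at that level, nothing is read from the absence of a larger one. The largest changes in the lists, those of Adora3 and Adora2a, were in genes with few counts.

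Transcripts of the genes that build and charge the molybdenum cofactor of XDH were detected in every library. Mocos, the sulfurase gene whose product activates XDH and the aldehyde oxidases, was at 268.4 and 285.5 CPM in Ctrl and at 286.9 and 291.2 CPM in Ell3 KD and was not called (0.06 ± 0.03, edgeR adjusted p = 0.153), though it was without Ctrl replicate 2 (0.10, edgeR adjusted p = 0.0237). Mocs2, a molybdopterin synthase gene, rose by 0.22 ± 0.04 (59.6 and 58.8 CPM to 68.9 and 68.9 CPM, edgeR adjusted p = 0.000310). Mocs1, which acts at the first step of cofactor synthesis, fell by 1.04 ± 0.30, from 1.75 and 1.42 CPM to 0.700 and 0.850 CPM (edgeR adjusted p = 0.00610). Without Ell3 KD replicate 1 that fall was not called (edgeR adjusted p = 0.0571). The list had 6 genes tested, with 1 higher and 1 lower, beside 21.1% and 21.8% of all genes.

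Of the urate and oxypurine enzymes besides the members, 4 of 7 were tested and all were rare. The aldehyde oxidase gene Aox2, from the family of which XDH is a relative, fell by 2.16 ± 0.61 (edgeR adjusted p = 0.00550) from 15 and 35 counts to 13 and 5 counts. It was not called without Ctrl replicate 2 (-1.51, edgeR adjusted p = 0.218) or without Ell3 KD replicate 2 (-1.81, edgeR adjusted p = 0.0905). Aox4, at a mean of 1.10 CPM in Ctrl and 1.44 CPM in Ell3 KD, was not called (edgeR adjusted p = 0.266). Urad, a gene of urate degradation at a mean of 2.52 CPM in Ctrl and 2.82 CPM in Ell3 KD, was not called either (edgeR adjusted p = 0.511).

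Nucleotidases, which dephosphorylate nucleotides to nucleosides, had 1 rise and 1 fall among 6 tested, beside 21.1% and 21.8% of all genes. Nt5m, the mitochondrial form, fell by 0.32 ± 0.06 (edgeR adjusted p = 6.27e-05). The cytosolic form Nt5c2, which prefers IMP, rose by 0.14 ± 0.05 (edgeR adjusted p = 0.0222), a call that was lost with DESeq2 (adjusted p = 0.0752) and without Ctrl replicate 1, Ell3 KD replicate 1 or Ell3 KD replicate 2 (edgeR adjusted p = 0.0948, adjusted p = 0.0661 and adjusted p = 0.140). Acpp, at a mean of 45.0 CPM in Ctrl and 46.2 CPM in Ell3 KD, was not called (edgeR adjusted p = 0.597). In the list of further deaminases, phosphorylases and nucleoside kinases, 1 of 7 tested genes was called, beside 42.9% of all genes. The called gene was Adal, a deaminase gene of modified AMP, which fell by 0.54 ± 0.11 (edgeR adjusted p = 0.000206). Adenosine kinase returns adenosine to AMP in competition with ADA. Its gene Adk was at a mean of 125.1 CPM in Ctrl and 126.6 CPM in Ell3 KD (0.02 ± 0.04, edgeR adjusted p = 0.753). The mitochondrial deoxyguanosine kinase gene Dguok, at a mean of 69.8 CPM in Ctrl and 74.4 CPM in Ell3 KD, was not called (edgeR adjusted p = 0.0972). Its log2 fold change was 0.09, and 0.13 without Ctrl replicate 2.

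Genes that interconvert IMP, AMP and GMP or supply the ribose donor PRPP for salvage had 2 of 13 tested genes called higher and 6 lower, beside 21.1% and 21.8% of all genes, and the direction of the list was not tested. Impdh1, which commits IMP to GMP, fell by 1.76 ± 0.32, from 2.58 and 1.38 CPM to 0.632 and 0.526 CPM (edgeR adjusted p = 8.43e-05). Adss and Adssl1, the adenylosuccinate synthase genes on the way from IMP to AMP, fell by 0.16 ± 0.03 and 0.69 ± 0.12 (edgeR adjusted p = 2.17e-05 and adjusted p = 4.12e-05). Adss was the most abundant gene of the list, at 1556 ± 6.69 CPM in Ctrl and 1391 ± 19.5 CPM in Ell3 KD (SD, n = 2). Gmps, at a mean of 316.4 CPM in Ctrl and 321.1 CPM in Ell3 KD, was not called (edgeR adjusted p = 0.631). Prpsap2, a regulatory partner gene of PRPP synthetase at a mean of 76.8 CPM in Ctrl, rose by 0.27 ± 0.04 (edgeR adjusted p = 1.32e-05). Its more abundant relative Prpsap1 went the other way, from a mean of 240.5 CPM in Ctrl to 219.7 CPM in Ell3 KD. Prpsap1 decreased by 0.13 ± 0.04 (edgeR adjusted p = 0.00540) and was added here with that result already known.

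Transporter genes had 1 rise and 4 falls among 10 tested, beside 21.1% and 21.8% of all genes, and the direction of the list was not tested. Slc43a3, a purine nucleobase transporter gene and the most abundant of the list, went from 141.2 and 139.1 CPM to 118.0 and 114.9 CPM and fell by 0.27 ± 0.04 (edgeR adjusted p = 2.70e-06). The equilibrative nucleoside transporter gene Slc29a2 fell by 0.55 ± 0.14 (edgeR adjusted p = 0.00220), and the concentrative transporter gene Slc28a1 by 0.60 ± 0.18 (edgeR adjusted p = 0.00912), which was lost with DESeq2 (adjusted p = 0.0675) and without Ell3 KD replicate 2 (edgeR adjusted p = 0.0624). Slc29a1 rose, from 3 and 6 counts to 75 and 28 counts (edgeR adjusted p = 0.000589), but not in a fit without Ell3 KD replicate 1 (edgeR adjusted p = 0.0879). Abcc4, at a mean of 27.5 CPM in Ctrl and 26.5 CPM in Ell3 KD, was not called (edgeR adjusted p = 0.505).

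Adenosine receptor genes moved in both directions in the list of extracellular purines, in which 4 of 13 tested genes rose and 3 fell. Of all genes tested, 21.1% rose and 21.8% fell. Adora2a, whose receptor raises cyclic AMP, had 3 and 1 counts in Ctrl and 74 and 43 counts in Ell3 KD (edgeR adjusted p = 1.50e-05), which is 0.835 and 0.665 CPM. Adora3 had 1 and 0 counts in Ctrl and 27 and 14 counts in Ell3 KD (edgeR adjusted p = 0.00166). Without Ell3 KD replicate 1 it was not called (edgeR adjusted p = 0.0528), and 20.9% of its exon length is shared with Tmigd3 on the same strand. The most abundant of the receptor genes, Adora2b, singled out after its value was seen, was at 26.4 ± 1.25 CPM in Ctrl and 22.6 ± 1.29 CPM in Ell3 KD and fell by 0.22 ± 0.07 (edgeR adjusted p = 0.00937). Entpd6, a nucleoside diphosphatase gene, fell by 0.23 ± 0.04 and its relative Entpd5 rose by 0.23 ± 0.06 (edgeR adjusted p = 8.81e-05 and adjusted p = 0.00424). The surface nucleotidase Entpd1, at a mean of 31.4 CPM in Ctrl and 33.5 CPM in Ell3 KD, was not called (edgeR adjusted p = 0.272).

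**Figure D4:**
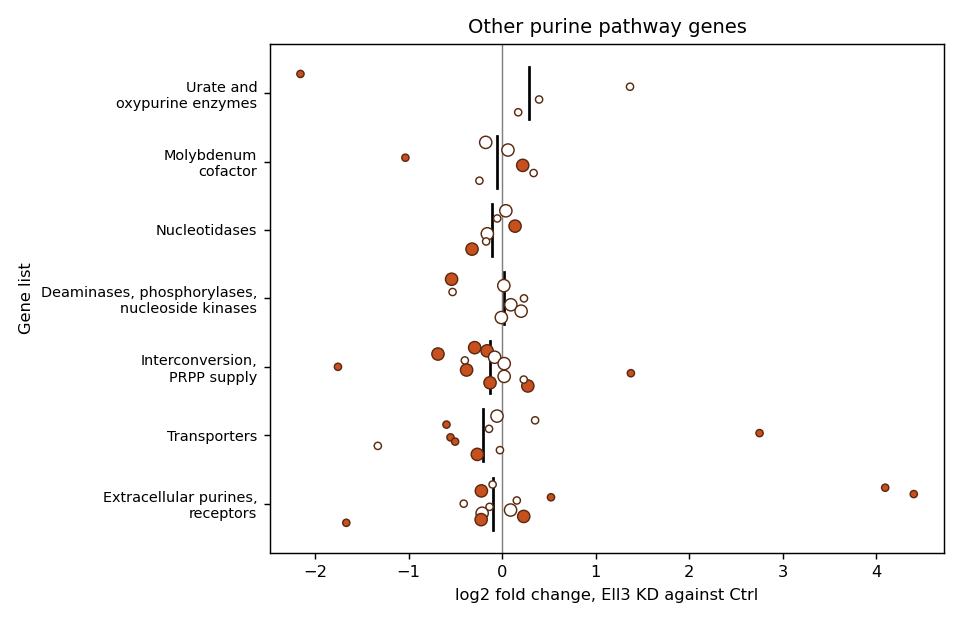
Log2 fold change in Ell3 KD against Ctrl (horizontal axis) of the 59 tested genes in 7 further lists (vertical axis). Each circle is a gene, large at a mean of 5 CPM or more and small below, filled if it passed the test, and black bars are list medians. Changes beyond 2-fold are seen only in small circles.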

How the data were processed

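Counts per gene were analysed for 4 libraries, 2 per group, with groups and replicate numbers from the sample titles. The deposited values are raw counts per gene. They were made with HISAT2 2.2.1.0 and featureCounts on mm10 after a check with FastQC 0.11.5, per the submitters' processing notes. Which annotation and strand option were used, and how reads with several matches were treated, is not given in the sources used here. Each library was amplified for 16 cycles and read as 150-base pairs, per the labels' protocols.

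The groups were compared with edgeR 4.0.16 in R 4.3.3 (filterByExpr, TMM, glmQLFit, glmQLFTest, two-sided, no covariates). Adjusted p-values (Benjamini-Hochberg) cover all 17879 genes tested, and genes were called under 0.05. SE is the log2 fold change over the root of its F statistic, and 95% intervals use the t quantile of the fit. CPM use library totals of all genes and TMM factors. Log2 CPM for likeness used a prior count of 2. DESeq2 1.42.0 and limma 3.58.1 were alternatives. The fits were tested on simulated counts.

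The members, lists and tests were chosen with earlier results of these data known. The text names all members, Ell3, per list the 2 most abundant tested genes and up to 4 called genes of smallest p, the 3 nearest tested genes on each side of Xdh, and the 5 genes most like it. The rule gave 49 genes. Symbols of predicted genes, Rik clones and pseudogenes were not named by the rule. Positions, exon lengths and transcripts came from GENCODE M21 on GRCm38, in which 17308 of the genes tested matched a single gene.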

Additional observations from a re-analysis of the deposited data

How the results depend on the processing

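The log2 fold change of Xdh lay between -4.50 and -4.38 under every alternative run. Of 512 values of 47 other genes under the alternatives, 462 kept direction and call, 41 lost the call, 2 gained it and 7 changed sign. The 7 belong to 5 genes that were called neither way. Leaving out 1 library moved Srd5a2 between -0.25 and 0.60, Urad between -0.069 and 0.37, Acpp between -0.025 and 0.10, Lclat1 between -0.016 and 0.053 and Adk between -0.0010 and 0.043, on the log2 scale, and the cause was not tested. Of the lost calls, 19 came with an assumed biological coefficient of variation of 0.2 in place of the estimated one (0.0421). Under it 861 genes were higher and 1103 lower over all genes, against 3770 and 3906. Of the members besides Xdh, 1 was then higher (Pnp2, edgeR adjusted p = 0.0251) and 0 lower in edgeR (0 also at an unadjusted p under 0.05), and of the wider pathway 4 were higher and 5 lower. DESeq2, a separate setting with dispersions of its own, called 1 member lower. Testing genes with a mean of at least 1 CPM left 5 wider pathway genes higher. Leaving out 1 library at a time gave between 3 and 5 members higher, 3 of them without Ctrl replicate 2 and 3 without Ell3 KD replicate 2. It gave between 5 and 10 wider pathway genes higher, with 5 without Ell3 KD replicate 1, and between 12 and 17 lower. By the longest protein-coding transcript, chosen as a length after seeing the data, 5 of 9 members kept their place in the order of levels in Ctrl, and by the longest annotated transcript 6.

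Libraries with the same replicate number did not deviate together (r = 0.029 over 17879 genes). With 2 libraries per group, the opposite pairing gives -0.029 by construction. Whether libraries of the same number share an animal or a collection is not given in the labels, and this value cannot decide it. With the replicate number as a block, 3894 genes were higher and 3987 lower, with 5 members higher and 1 lower besides Xdh. Of the genes named, Galnt14 lost its call with the block (edgeR adjusted p = 0.0580), and no other gene did. Depth limits the genes with few counts, Aox2, Slc29a1, Adora2a and Adora3 among them.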
